A study of Mus musculus with 6 samples.

Results

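The 10 genes described here form a core of the tumour necrosis factor (TNF) family in microglia, with 3 ligands (Tnf, Tnfsf9 and Ltb) and 7 receptors (Tnfrsf1a, Tnfrsf1b, Tnfrsf9, Cd40, Fas, Tnfrsf11a and Tnfrsf14). They were picked by gene symbol from the 55335 gene identifiers of the expression table, with earlier results of these data known. RNA-seq had been performed on primary microglia after 24 h of co-culture with neutrophils, in 3 libraries with neutrophils from Cd177 wild-type mice (WT) and 3 libraries with neutrophils from Cd177 knockout mice (KO). The neutrophils came from spinal cord injury (SCI) lesions at 3 days post injury and were isolated by magnetic sorting. The microglia were WT in all 6 libraries, came from neonatal C57BL/6 brains, and were shaken off the culture flasks on day 14. After co-culture the microglia were recovered by flow sorting as Ly6G-negative cells. Cd177, which encodes a surface protein of neutrophils, was missing from the whole donor animal in the KO arm, so the neutrophils had also matured without it. There was no library of microglia without neutrophils. The comparison asked how the transcripts of microglia differed when the neutrophils beside them lacked Cd177.

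TNF family ligands are mostly trimeric membrane proteins, and some, TNF among them, are also cut from the surface and act at a distance. Their receptors either recruit TRAF adaptors and activate NF-kB, or carry a death domain that can also start cell death. In the injured central nervous system, microglia and macrophages are a known source of TNF, whose receptors TNFR1 (Tnfrsf1a) and TNFR2 (Tnfrsf1b) differ in that the first carries a death domain and the second does not.

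The values were FPKM (fragments per kilobase, scaled to the mapped fragments of the library), a level per transcript length, so that levels of different genes can be set side by side. Between 19653 and 20449 genes were above 0 in a library, and the estimated depth was 15.6 to 19.2 M (mega) fragments per library. The mitochondrial share of all FPKM was 14.3% to 14.6% with KO and 11.1% to 11.3% with WT neutrophils, and the part of this in the results was not tested. All 14 macrophage and microglia markers were above 0, with sums of 1014 to 1059 FPKM in the WT arm and 1139 to 1171 FPKM in the KO arm. They did not move together, as 6 of the 11 tested rose and 3 fell with KO neutrophils (limma adjusted p under 0.05), where 24.5% of all genes tested rose and 18.8% fell. Cd68 (372 and 491 FPKM in the WT and KO arms) and Trem2 (12.0 and 27.96 FPKM) rose, whereas Adgre1, which encodes F4/80 (101 and 39.3 FPKM), Cx3cr1 (2.74 and 1.14 FPKM) and Fcer1g (191 and 157 FPKM) fell, and their part in the results was not tested. The label has a limit, since the microglial markers P2ry12, Aif1 and Tmem119 lay under 1 FPKM in both. Of 15 neutrophil markers, 7 were at 0 in every library, Ly6g and S100a9 included, and 14 had a mean under 1 FPKM. The summed level of these 15 markers was 9.24 to 9.38 FPKM in the WT arm and 1.76 to 2.40 FPKM in the KO arm, mostly through Mmp9 (7.13 ± 0.0688 and 0.987 ± 0.190 FPKM, SD, n = 3 each), and without Mmp9 it was 2.03 to 2.30 and 0.791 to 1.27 FPKM. Its part in the results was not tested. Lymphocyte markers were at 0 for 8 of 10 genes, with sums of at most 0.0876 FPKM, astrocyte and oligodendrocyte markers for 5 of 12, with sums of 2.92 to 3.46 FPKM and 4.17 to 4.59 FPKM in the WT and KO arms, and endothelial and fibroblast markers for 5 of 10, with sums of at most 0.321 FPKM. Cd177 itself had 0.477, 0.113 and 0.151 FPKM in the WT arm and 0.109, 0.022 and 0.084 FPKM in the KO arm, too low to check the neutrophil genotype.

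To show the DNA next to these genes, windows of 250 bases before a transcription start were read from RefSeq (build GRCm38.p6). Of the 10 genes, 8 matched the promoter table, with 9 windows, and Cd40 and Tnfsf9 did not. The windows were searched on both strands for the 10-letter NF-kB consensus, which was present in 3.9% of 32851 promoters of this length, and for TGANTCA, the AP-1 site, which was present in 6.75%. The 5 windows below belong to Tnf and its 2 receptors, and to the 2 genes whose window held the NF-kB consensus, which is in capitals. Each sequence reads 5′ to 3′ on the strand of its gene and ends on the base before the start. Tnf is chr17:35202008-35202257 on the minus strand, Tnfrsf1b is chr4:145246871-145247120 on the minus strand, Tnfrsf1a is chr6:125349473-125349722 on the plus strand, Ltb is chr17:35194257-35194506 on the plus strand, and Tnfrsf9 is chr4:150927749-150927998 on the plus strand, before the second of its starts.
Tnf: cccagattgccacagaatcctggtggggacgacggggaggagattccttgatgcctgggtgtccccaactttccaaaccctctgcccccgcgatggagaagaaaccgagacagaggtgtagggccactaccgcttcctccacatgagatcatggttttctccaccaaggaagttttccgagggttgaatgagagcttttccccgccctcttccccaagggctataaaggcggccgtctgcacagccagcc
Tnfrsf1b: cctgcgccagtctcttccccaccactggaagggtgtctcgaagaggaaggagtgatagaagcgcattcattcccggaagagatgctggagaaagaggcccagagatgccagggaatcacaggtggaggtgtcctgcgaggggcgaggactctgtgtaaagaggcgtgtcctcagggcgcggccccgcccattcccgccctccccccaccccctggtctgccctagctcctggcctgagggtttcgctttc
Tnfrsf1a: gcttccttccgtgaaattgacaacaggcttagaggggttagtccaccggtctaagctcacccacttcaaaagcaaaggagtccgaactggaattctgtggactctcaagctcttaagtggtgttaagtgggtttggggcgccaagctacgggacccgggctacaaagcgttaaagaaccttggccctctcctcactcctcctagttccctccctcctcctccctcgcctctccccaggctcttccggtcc
Ltb: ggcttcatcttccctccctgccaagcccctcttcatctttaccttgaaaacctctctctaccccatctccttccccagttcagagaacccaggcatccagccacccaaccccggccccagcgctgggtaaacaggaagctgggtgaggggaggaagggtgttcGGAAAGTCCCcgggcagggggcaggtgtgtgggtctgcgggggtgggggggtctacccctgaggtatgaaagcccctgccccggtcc
Tnfrsf9: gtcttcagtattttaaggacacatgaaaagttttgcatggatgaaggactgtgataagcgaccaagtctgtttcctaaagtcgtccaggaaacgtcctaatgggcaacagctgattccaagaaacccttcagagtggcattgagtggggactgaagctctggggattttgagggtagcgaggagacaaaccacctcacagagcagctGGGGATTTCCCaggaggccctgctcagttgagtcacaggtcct
The match in Ltb began 87 bases before the start. In Tnfrsf9, 2 overlapping matches began 43 and 42 bases before the start. The other 7 windows, those of Tnf, Tnfrsf1a and Tnfrsf1b included, held no match. TGANTCA was found once in the Tnfrsf9 window shown and once in that of Fas. These are matches of letters in a window and no measure of binding.

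Of the 10 genes, 7 had a mean level of 1 FPKM or more and entered the limma fit, and each of these had at least 1 FPKM in every library. With KO neutrophils, Tnf, Tnfsf9, Tnfrsf1b, Tnfrsf9 and Cd40 fell, and Tnfrsf1a and Tnfrsf11a rose. Thus 7 of 7 tested genes were called at a Benjamini-Hochberg adjusted p under 0.05, where 43.3% of all 11395 genes tested were called. For the 5 that fell the share of all genes called lower was 18.8%, and for the 2 that rose the share called higher was 24.5%. Past the threshold of more than 2-fold with p under 0.05 there were 4 genes, all lower (Tnf, Tnfrsf1b, Tnfrsf9 and Cd40), against 2.02% of all genes lower past this threshold and 0.553% higher (2.57% in either direction). The median log2 change of the 7 genes was -1.35, and that of all genes tested was 0.02. The 10 genes and the gene lists below were chosen with earlier results of these data known. Their counts beside the shares of all genes therefore describe them and do not test enrichment. The groups did not overlap for any of the 7 tested genes, beside 55.8% of all genes tested. For Ltb, Fas and Tnfrsf14, which were not tested, they did not overlap either. An exact permutation test (two-sided) gave p = 0.1 for each of the 10 genes, the smallest that 3 libraries against 3 allow. Nothing in the labels says that the 3 libraries per arm were separate cultures, so p-values measure the spread between these libraries, which may be technical.

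**Figure D1:**
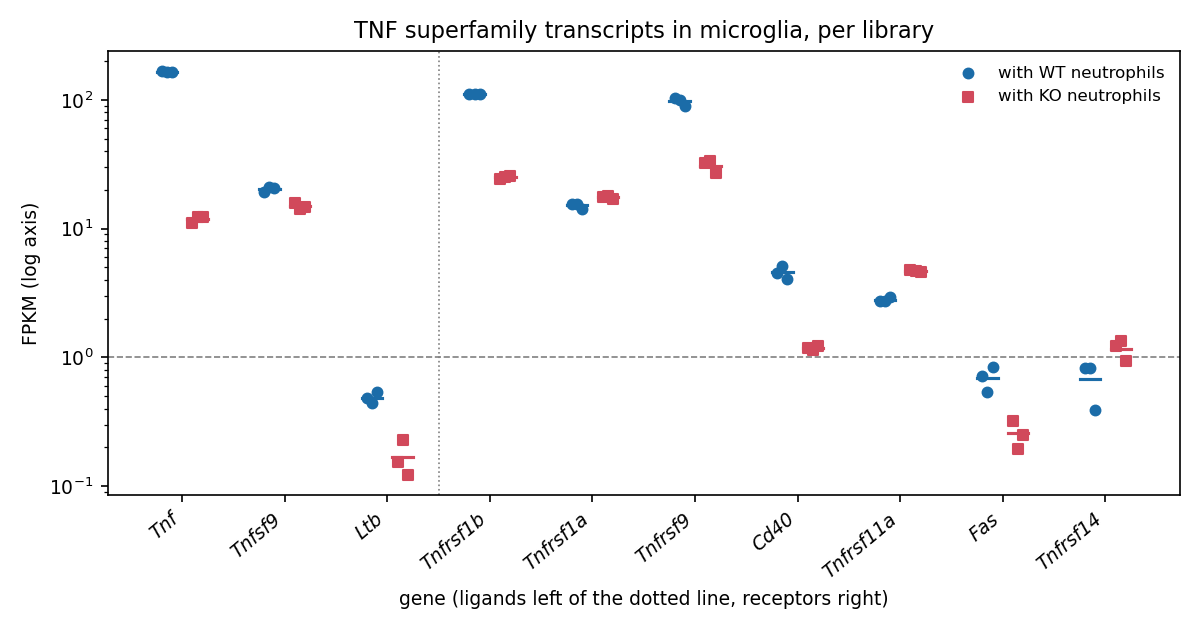
Level of each of the 10 genes in FPKM (log axis) in the 3 libraries with WT neutrophils and the 3 with KO neutrophils, with points for libraries, short bars for the arm means and a dashed line at 1 FPKM. Tnf had the highest level with WT neutrophils (163 to 167 FPKM), and with KO neutrophils it lay at 10.9 to 12.3 FPKM, below Tnfsf9.

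Among the ligands, Tnf, the founding cytokine of the family, showed the greatest difference of the 10 genes. Tnf (ENSMUSG00000024401, chr17:35199381-35202007, minus strand, GRCm38) had 167, 165 and 163 FPKM with WT neutrophils and 10.9, 12.2 and 12.3 FPKM with KO neutrophils. The WT libraries were all high and the KO libraries all low, with no overlap. The log2 change was -3.70 (SE 0.046, 95% interval -3.81 to -3.59, limma adjusted p = 6.05e-08), a 14.0-fold lower mean FPKM. By size it was the 11th of the genes that fell. In bulk RNA, fewer cells that express a gene and less RNA per cell cannot be told apart.

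Tnfsf9 encodes the ligand of Tnfrsf9 and is a costimulatory molecule of antigen-presenting cells. Its level (chr17:57105325-57107757, plus strand) was 19.2, 21.2 and 20.5 FPKM with WT neutrophils and 15.7, 14.2 and 14.7 FPKM with KO neutrophils. All WT libraries lay above all KO libraries, but the change was much smaller than for Tnf, with a log2 change of -0.42 (SE 0.051, 95% interval -0.55 to -0.30, limma adjusted p = 0.000972) and a 1.36-fold lower mean. An exon of Tnfsf9 overlaps Gm11110 on the opposite strand, and whether strand was used in counting is not given, so reads of the overlap could belong to either gene.

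Ltb encodes lymphotoxin beta, which anchors lymphotoxin alpha in the membrane, and lies 3.061 kb from Tnf (chr17:35194439-35196320, plus strand). It had 0.482, 0.438 and 0.535 FPKM with WT neutrophils and 0.155, 0.228 and 0.122 FPKM with KO neutrophils. Its mean was under 1 FPKM. KO replicates 1 and 3 lay under the estimated detection floor of 3 fragments (0.172 to 0.213 FPKM). By that measure these values are not distinguishable from background at this depth. KO replicate 2 lay above its own floor of 0.176 FPKM. The floors assume the shortest annotated coding transcript of a gene (905 bases for Ltb) and would be lower for a longer one. Without the filter on low values Ltb was called lower (limma adjusted p = 0.00689), with a fitted size that depends on the pseudocount and is not given, in a fit where 17.9% of 25195 genes were called.

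The 2 receptors of TNF went in opposite directions. Tnfrsf1b, TNFR2, which recruits TRAF2 and is expressed mainly by immune and endothelial cells (chr4:145213463-145246870, minus strand), had 110.3, 110.7 and 111 FPKM with WT neutrophils and 24.5, 24.98 and 25.8 FPKM with KO neutrophils. The libraries within an arm were close together and the arms far apart. The log2 change was -2.10 (SE 0.026, 95% interval -2.16 to -2.04, limma adjusted p = 6.05e-08), a 4.42-fold lower mean.

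Tnfrsf1a, TNFR1, the death-domain receptor found on most cell types (chr6:125349362-125362484, plus strand), had 15.6, 15.6 and 14.2 FPKM with WT neutrophils and 17.6, 18.0 and 17.0 FPKM with KO neutrophils. Here every KO library was above every WT library, by a small margin. The log2 change was 0.20 (SE 0.047, 95% interval 0.09 to 0.31, limma adjusted p = 0.0152), a 1.16-fold higher mean. Without KO replicate 2 the log2 change was 0.18 and the adjusted p was 0.0512, so the call was lost.

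Since both receptors were measured in each library, their ratio could be taken within a library. The Tnfrsf1b to Tnfrsf1a ratio of FPKM was 7.08, 7.09 and 7.83 in the WT arm and 1.39, 1.39 and 1.52 in the KO arm (7.33 ± 0.430 and 1.43 ± 0.0753, SD, n = 3 each). The FPKM of Tnfrsf1b thus exceeded that of Tnfrsf1a in all 6 libraries, by a smaller factor in the KO arm. The size of the ratio depends on the transcript lengths behind FPKM, which are not given. The log2 ratio differed by -2.36 (exact two-sided permutation p = 0.1, the smallest possible), and by -2.40 to -2.30 across the alternatives. The ratio cancels any scaling of a whole library.

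**Figure D2:**
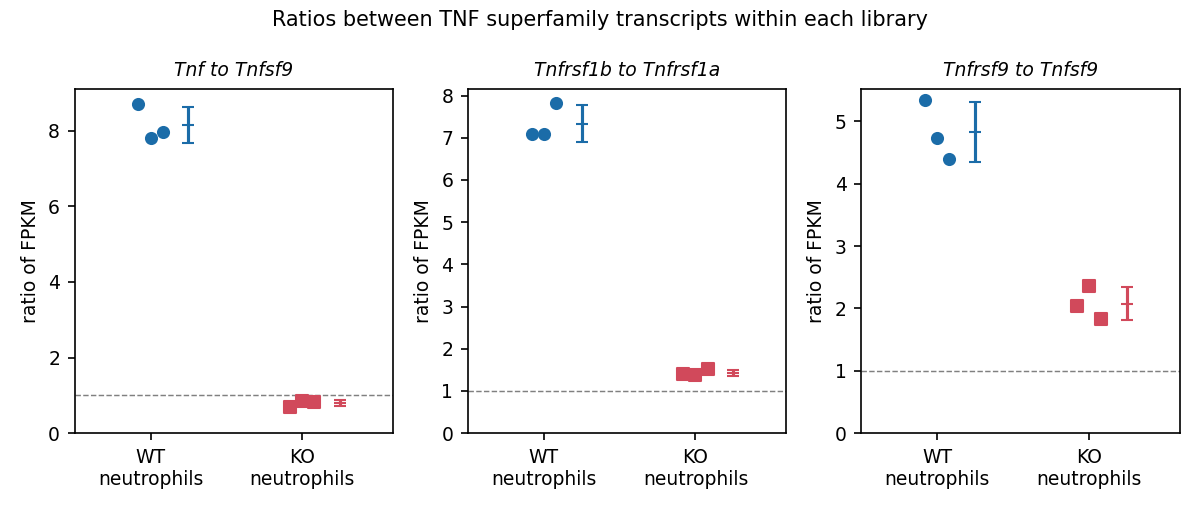
Ratio of FPKM within each library (linear axes from 0) for Tnf to Tnfsf9, Tnfrsf1b to Tnfrsf1a and Tnfrsf9 to Tnfsf9, with a point per library, the mean ± SD of each arm (n = 3) beside the points, and a dashed line at a ratio of 1. In each panel the 3 KO libraries lie below the 3 WT libraries, and only the Tnf to Tnfsf9 ratio crosses 1, from 7.81 to 8.70 down to 0.698 to 0.859.

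Tnfrsf9 encodes CD137, the costimulatory receptor for Tnfsf9, which is induced in activated leukocytes (chr4:150914562-150946102, plus strand). It had 102.8, 100.1 and 90.1 FPKM with WT neutrophils and 32.01, 33.6 and 26.9 FPKM with KO neutrophils. The arms were well separated, with replicate 3 the lowest in both. The log2 change was -1.64 (SE 0.090, 95% interval -1.86 to -1.42, limma adjusted p = 3.25e-05), a 3.17-fold lower mean. The receptor exceeded its ligand in every library, with a Tnfrsf9 to Tnfsf9 ratio of 5.34, 4.73 and 4.40 in the WT arm and 2.04, 2.36 and 1.83 in the KO arm. The Tnf to Tnfsf9 ratio was 8.70, 7.81 and 7.96 in the WT arm and 0.698, 0.859 and 0.836 in the KO arm. The FPKM of Tnfsf9 thus exceeded that of Tnf in each KO library and in no WT library. This order depends on the transcript lengths behind FPKM, which are not given, and on the reads shared with Gm11110.

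Cd40 encodes the receptor through which T cells license antigen-presenting cells (chr2:165055627-165072948, plus strand). Its level was 4.52, 5.13 and 4.02 FPKM with WT neutrophils and 1.177, 1.13 and 1.22 FPKM with KO neutrophils. The WT libraries spread more widely, but all lay above the KO libraries. The log2 change was -1.35 (SE 0.083, 95% interval -1.55 to -1.15, limma adjusted p = 5.24e-05), and the mean was 3.87-fold lower. Since 1 was added to each value before the log, this log2 change understates the change of so low a gene.

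Tnfrsf11a encodes RANK, the receptor that drives osteoclast formation from cells of the macrophage lineage (chr1:105780718-105847981, plus strand). It had 2.73, 2.73 and 2.92 FPKM with WT neutrophils and 4.77, 4.70 and 4.59 FPKM with KO neutrophils. All KO libraries were above all WT libraries, the opposite of Cd40. The log2 change was 0.58 (SE 0.048, 95% interval 0.47 to 0.70, limma adjusted p = 0.000197), a 1.68-fold higher mean. Accordingly the Cd40 to Tnfrsf11a ratio was 1.66, 1.88 and 1.38 in the WT arm and 0.247, 0.241 and 0.266 in the KO arm.

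The remaining receptors had a mean under 1 FPKM. Fas, a death receptor (chr19:34290666-34327772, plus strand), had 0.711, 0.536 and 0.837 FPKM with WT neutrophils and 0.322, 0.195 and 0.251 FPKM with KO neutrophils. Each KO value lay under the estimated floor of its own library (0.293 to 0.362 FPKM over the 6 libraries), so no fold is given. That floor assumes the shortest coding transcript of Fas (532 bases) and would be lower for a longer one, so Fas is not shown to be absent. Tnfrsf14, HVEM, the receptor of Tnfsf14 (chr4:154921933-154928563, minus strand), had 0.821, 0.820 and 0.390 FPKM with WT neutrophils and 1.23, 1.34 and 0.942 FPKM with KO neutrophils. The KO libraries were the higher ones, and WT replicate 3 lay under the floor (0.396 to 0.489 FPKM). Without the filter Fas was called lower (limma adjusted p = 0.0195), again with no size given, and Tnfrsf14 did not pass (log2 change 0.38, SE 0.141, limma adjusted p = 0.146).

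The order of the levels also differed between the arms. With WT neutrophils it was Tnf, Tnfrsf1b, Tnfrsf9, Tnfsf9, Tnfrsf1a, Cd40, Tnfrsf11a, Fas, Tnfrsf14 and Ltb. The ranges of neighbours in this order did not overlap down to Tnfrsf11a, whereas Tnfrsf14 overlapped both Fas and Ltb. With KO neutrophils the order was Tnfrsf9, Tnfrsf1b, Tnfrsf1a, Tnfsf9, Tnf, Tnfrsf11a, Cd40, Tnfrsf14, Fas and Ltb, so that Tnf passed from rank 1 to rank 5. Here Cd40 (1.13 to 1.22 FPKM) and Tnfrsf14 (0.942 to 1.34 FPKM) overlapped, as did Fas and Ltb, and the other neighbours did not.

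Added over the 7 receptors, the level was 224 to 237 FPKM per library in the WT arm and 76.6 to 83.9 FPKM in the KO arm. The makeup of this sum differed too. Tnfrsf1b held 46.5% to 49.7% of it with WT and 29.8% to 33.6% with KO neutrophils. In the same order Tnfrsf1a held 6.35% to 6.62% and 21.5% to 22.1%, Tnfrsf9 held 40.3% to 43.3% and 35.1% to 39.99%, and Tnfrsf11a held 1.15% to 1.31% and 5.60% to 5.99%. Shares sum to a whole, so a lower share of some receptors raises that of others.

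The rest of the superfamily was then counted, with values given from here on as mean ± SD of 3 libraries, WT arm first. Of 46 ligands and receptors listed, the 10 genes included, 12 were at 0 in all libraries, 16 were above 0 with a mean under 1 FPKM, and 18 reached a mean of 1 FPKM. Outside the 10 genes 11 were tested, of which 1 was called higher and 1 lower, none past 2-fold, with a median log2 change of -0.06, where 43.3% of all genes tested were called and 2.57% passed 2-fold. Among the ligands, Tnfsf12 (TWEAK, a ligand that acts on tissue repair) rose (log2 change 0.41), with 5.88 ± 0.434 FPKM in the WT arm and 8.12 ± 0.269 FPKM in the KO arm (limma adjusted p = 0.00196). Tnfsf13 (APRIL, a survival factor of B cells) had 4.50 ± 1.73 and 7.35 ± 3.04 FPKM with overlapping arms (limma adjusted p = 0.206). Lta, which encodes lymphotoxin alpha and neighbours Tnf, was under the filter, with 1.15, 1.55 and 1.25 FPKM in the WT arm and 0.161, 0 and 0.0752 FPKM in the KO arm, the last 2 not above the floor of 0.113 to 0.139 FPKM. Lta missed the filter through its low KO level, and without the filter it was called lower (limma adjusted p = 0.000979), its size not given for the same reason as for Ltb.

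Among the other receptors, Tnfrsf23, a decoy receptor, fell (log2 change -0.34), with 12.0 ± 0.672 FPKM in the WT arm and 9.23 ± 0.0376 FPKM in the KO arm (limma adjusted p = 0.0016). It is a near copy of Tnfrsf22 and a relative of Tnfrsf26, and how reads were split between them was not checked. Tnfrsf26 had 42.5 ± 0.967 and 42.0 ± 0.848 FPKM (limma adjusted p = 0.664). Ltbr, the receptor of the lymphotoxin formed with Ltb, had 13.1 ± 0.0783 and 12.6 ± 0.165 FPKM (limma adjusted p = 0.182), though it passed on the TPM scale, in which each library is rescaled to the same sum (log2 change -0.10, adjusted p = 0.0416).

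**Figure D3:**
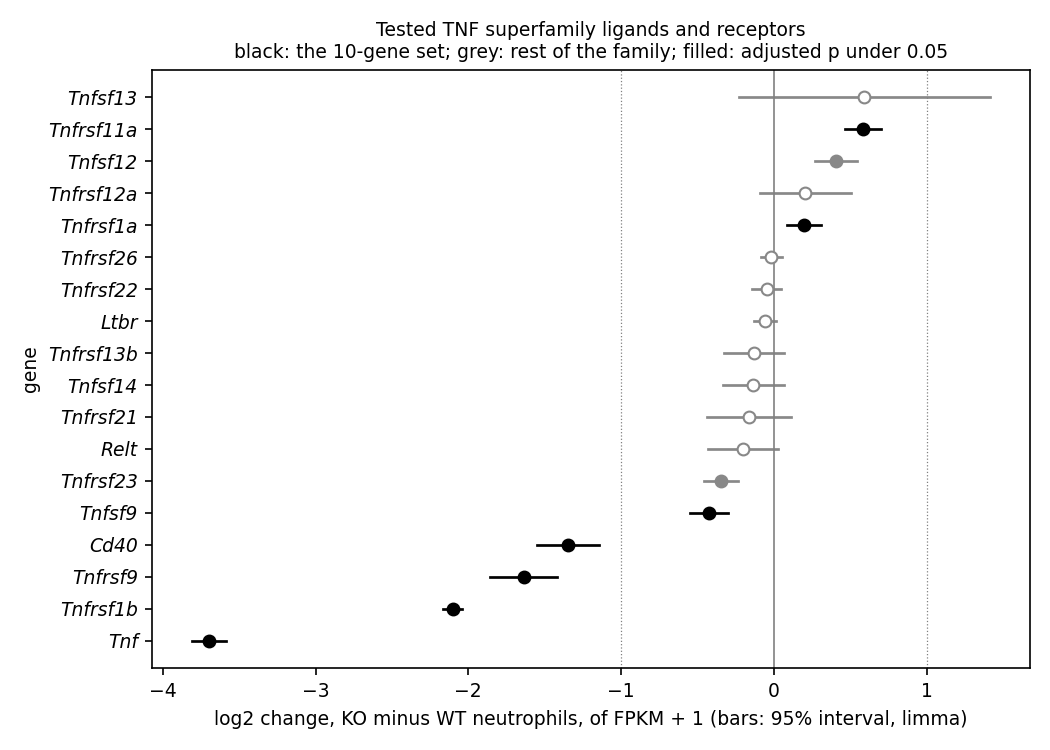
Log2 change of FPKM + 1, KO minus WT neutrophils, with 95% intervals from limma, for the tested superfamily genes (black for the 10 genes, grey for the rest, filled where the adjusted p was under 0.05). Tnf, Tnfrsf1b, Tnfrsf9 and Cd40 lie below -1, and the points of the 11 genes outside the 10 lie within 1 of 0.

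Downstream of the receptors, genes of the TRAF adaptors and the signalling complex were counted. Of 24 genes 23 were tested, 9 fell and 3 rose, and 3 were lower past 2-fold, with a median log2 change of -0.15. This is 52.2% called, near the 43.3% of all genes tested, of which 18.8% were lower and 24.5% higher, and 2.02% were lower past 2-fold. The 3 were Traf1, Tnfaip3 and Birc3, which are themselves known NF-kB targets. Tnfaip3, the ubiquitin-editing brake A20, fell from 7.79 ± 0.172 to 1.83 ± 0.145 FPKM (log2 change -1.64, limma adjusted p = 4.63e-06), and Birc3, the ubiquitin ligase cIAP2, fell from 14.7 ± 0.819 to 4.89 ± 0.429 FPKM (log2 change -1.42, limma adjusted p = 1.79e-05). Traf1, an adaptor bound to TRAF2, had 7.75, 4.50 and 4.78 FPKM in the WT arm and 0.148, 0.191 and 0.108 FPKM in the KO arm. The KO values all lay under the floor of 0.404 to 0.499 FPKM, which again assumes the shortest coding transcript. Since Traf1 passed the filter through the WT arm alone, its place in these counts was fixed by its own difference and no test is read from it. Tank, an adaptor of TRAF proteins, fell less, from 17.3 ± 0.476 to 12.8 ± 0.329 FPKM (limma adjusted p = 0.00026). Otulin, which trims linear ubiquitin, had 26.0 and 25.8 FPKM (adjusted p = 0.891), and Tab2, which links TRAF6 to TAK1, had 18.9 and 17.9 FPKM (adjusted p = 0.103).

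In the cell death branch, 8 of 10 genes were tested, 3 fell and 2 rose, none past 2-fold, with a median log2 change of -0.07, beside 18.8% of all genes tested lower and 24.5% higher. Cflar, the inhibitor of caspase-8 (cFLIP), fell from 19.5 ± 0.448 to 12.1 ± 0.483 FPKM (log2 change -0.65, limma adjusted p = 4.7e-05). Mlkl, the executor of necroptosis, fell from 21.96 ± 1.14 to 15.3 ± 0.933 FPKM (limma adjusted p = 0.000773). Bid, which carries the caspase-8 signal to mitochondria, rose from 16.6 ± 0.195 to 21.9 ± 0.466 FPKM (log2 change 0.38, limma adjusted p = 0.000141). Casp8 and Diablo did not pass (limma adjusted p = 0.198 and 0.710).

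Of the 8 genes that cut TNF from the membrane or control this cut, 6 were tested, 3 fell and 1 rose, with a median log2 change of -0.21, beside the same 18.8% lower and 24.5% higher of all genes tested. Furin, which matures ADAM17, fell from 13.9 ± 0.239 to 6.22 ± 0.113 FPKM (log2 change -1.04, limma adjusted p = 4.51e-06) and was the 1 gene past 2-fold, where 2.02% of all genes tested were lower past 2-fold. Rhbdf2, the carrier iRhom2 of ADAM17, fell from 11.4 ± 0.414 to 7.06 ± 0.412 FPKM (log2 change -0.62, limma adjusted p = 0.000195), while Frmd8, which stabilises this complex, rose from 10.6 ± 0.409 to 13.4 ± 0.268 FPKM (limma adjusted p = 0.00132). Adam17, the TNF-cutting protease, had 32.3 ± 2.45 and 26.5 ± 2.72 FPKM (log2 change -0.28, limma adjusted p = 0.0418), and its call was lost in 6 alternatives, without WT replicate 1 or 2 or KO replicate 2 or 3 among them (adjusted p = 0.108, 0.115, 0.0616 and 0.0741). Adam10, a related protease, had 26.4 ± 7.999 and 32.1 ± 8.33 FPKM (adjusted p = 0.386).

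Of 18 genes known to be induced by TNF through NF-kB, 14 were tested, 11 fell and none rose, 9 of them past 2-fold, with a median log2 change of -1.16. Of all genes tested 18.8% were called lower, 2.02% were lower past 2-fold, and the median was 0.02. Ccl2, a chemokine for monocytes, fell from 1169 ± 17.4 to 48.0 ± 2.28 FPKM (log2 change -4.58, limma adjusted p = 1.00e-08). Nfkbia, the inhibitor of NF-kB, fell from 74.0 ± 2.37 to 12.9 ± 1.08 FPKM (log2 change -2.44, limma adjusted p = 1.10e-06), and Ier3, an immediate-early gene, fell from 310.5 ± 5.84 to 74.2 ± 0.970 FPKM (log2 change -2.05, limma adjusted p = 4.09e-08). Nfkb2, an NF-kB subunit, fell from 34.8 ± 0.766 to 14.1 ± 0.0379 FPKM (log2 change -1.25, limma adjusted p = 8.52e-07). Tnfaip2, in spite of its name (TNF alpha induced protein), had 66.4 and 65.2 FPKM (adjusted p = 0.837), and Icam1, an adhesion molecule, had 8.25 and 7.34 FPKM (adjusted p = 0.0536, with 3 of 14 alternatives calling it lower). Other stimuli also induce these genes, and the list was chosen with earlier results of these data known.

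**Figure D4:**
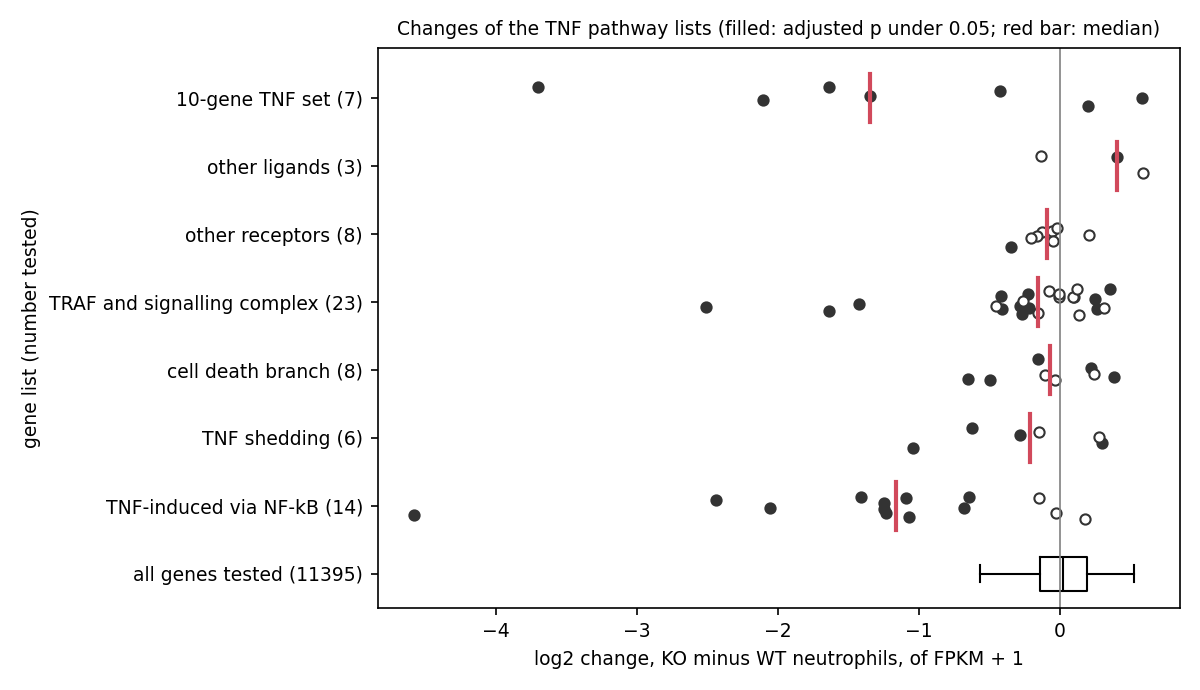
Log2 change of FPKM + 1, KO minus WT neutrophils, of each tested gene in the lists of the TNF pathway, with filled points for an adjusted p under 0.05, red bars for list medians, and a box for all 11395 genes tested (median and quartiles, whiskers at the 5th and 95th percentiles). The genes induced through NF-kB have a median of -1.16, and the medians of the signalling complex, death branch and shedding lists lie between -0.21 and -0.07.

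The chromosomal neighbours of Tnf were looked at after its values had been seen. Within 50 kb on either side lie 10 protein-coding genes, Tnf included, and of the other 9 genes 5 were tested, 4 were called lower and 0 higher, where 18.8% of all genes tested were called lower and 24.5% higher. The 4 were Gm16181 (log2 change -1.13, limma adjusted p = 0.000386), Ddx39b, an RNA helicase (57.7 ± 1.05 and 42.5 ± 1.17 FPKM, log2 change -0.43, adjusted p = 7.68e-05), Nfkbil1 (log2 change -0.37, adjusted p = 0.000322) and Prrc2a (log2 change -0.11, adjusted p = 0.0178). Lst1 had a log2 change of 0.17 (adjusted p = 0.216). Gm16181 lies within Nfkbil1 on the opposite strand, so their reads are not told apart without strand.

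By the distance between profiles of log2(FPKM + 1), centred on each gene, over the 6 libraries, 5 of 7720 genes were named as nearest to Tnf. Saa3, an acute-phase protein, was the nearest (distance 0.24), with 30.2 ± 1.24 FPKM in the WT arm and 1.72 ± 0.176 FPKM in the KO arm (SD, n = 3 each). Il6, an inflammatory cytokine (0.50), had 18.0 ± 0.772 FPKM in the WT arm and 0.0423, 0.171 and 0.128 FPKM in the KO arm, and Il1a, the cytokine IL-1 alpha (0.51), had 57.1 ± 2.27 and 2.45 ± 0.133 FPKM. 6530402F18Rik and Gm14275 followed, both at a distance of 0.54, and Gm14275 was listed at 0 in every KO library. With 6 libraries in 2 arms this order rests on the size of the difference between the arms. For Il6, 6530402F18Rik and Gm14275, whose KO levels were at or near 0, that size is set by the 1 added before the log, so their nearness to Tnf depends on it.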

How the data were processed

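RNA-seq of co-cultured microglia was analysed from 6 libraries, 3 per neutrophil genotype, grouped by sample title. The authors deposited FPKM values for 55335 gene identifiers. The labels list fastp 0.17.1, HISAT2 2.1.0, DESeq2 1.18.1 and R 3.4.3, without roles or order. The quantification tool, genome build, annotation and strand setting are not given in the sources used here, and the labels and the methods name different library kits and sequencers. Symbols and positions came from GENCODE M21 (GRCm38), which matched 55154 identifiers (99.67%). FPKM depends on the annotation used for length, and a large change in a few genes shifts the others.

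Values were tested as log2(FPKM + 1) with limma 3.58.1 in R 4.3.3 (lmFit, eBayes with a variance trend), KO minus WT neutrophils, for the 11395 genes whose mean level reached 1 FPKM. P-values were adjusted over all of these (Benjamini-Hochberg), with calls under 0.05. The study used DESeq2 on counts, which were not used here. Depth was estimated from the smallest step of low FPKM values. Low values were whole fragments too seldom for a count test, and floors of 3 fragments cover counting error only. Each floor assumes the shortest annotated coding transcript of the gene, so it is too high where longer transcripts are expressed. Single values were compared by an exact two-sided permutation test (scipy 1.17.1). Scripts were tested on simulated data.

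The 10 genes and all gene lists were chosen with earlier results of these data known. All 10 genes were named. Of each pathway list, up to 4 called genes with the smallest p and up to 2 uncalled genes with the highest mean were named, and for Tnf the 5 nearest profiles among genes with at least 5 FPKM in the higher arm. The values of 1 gene named by this rule are not reported here.

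Alternatives were a pseudocount of 0.1, no filter, a minimum mean of 5 FPKM, quantile normalization, centring on the median, rescaling to a common sum (TPM scale), a fit without variance trend, a replicate block, and leaving out each library.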

Additional observations from a re-analysis of the deposited data

How the results depend on the processing

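The 7 tested genes of the TNF core kept their direction in each of the 14 alternatives that tested them. Over 125 comparisons for the 10 genes and their receptor ratio, only Tnfrsf1a lost a call, without KO replicate 2. Ltb and Fas, not tested in the main fit, were called without the filter, where 17.9% of 25195 genes were called. A minimum of 5 FPKM left 5 of the 7 genes to test, all called. Called genes numbered 3763 of the 7383 tested with that minimum, and 4081 to 4229 when a library was left out. The main fit called 4930 of 11395. Calls were lower for 43.4%, and for 54.9% on the TPM scale, which moved the median log2 change of all genes from 0.02 to -0.02. A pseudocount of 0.1 put 441 genes past 2-fold, against 293. Called ligands outside the core were 3 without a filter, against 1, and called receptors outside it were 2 on the TPM scale, against 1, and 1 to 2 when a library was left out (2 without WT replicate 2).

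Small uncalled changes reversed when a library was left out. Tnfrsf26 ranged from -0.0331 to 0.000653, Otulin from -0.0273 to 0.0184, Diablo from -0.0638 to 0.0137 and Tnfaip2 from -0.0985 to 0.0524. The cause was not tested. Adam17 was uncalled without a filter (adjusted p = 0.101) and without the variance trend (0.0541). Tab2 was called on the TPM scale (-0.12, adjusted p = 0.0279), Casp8 without WT replicate 2 (-0.16, adjusted p = 0.0294), and Icam1 with a minimum of 5 FPKM, on the TPM scale and without KO replicate 3 (adjusted p = 0.0483, 0.0197 and 0.0488).

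Same-numbered libraries did not deviate together (correlations of deviations across 4789 genes -0.18, 0.03 and -0.05), so the numbers gave no pairing. The replicate block left 4212 calls, with all 7 core genes among them, and a log2 receptor ratio difference of -2.36 (exact permutation p = 0.25, the smallest possible). Depth limits Ltb, Fas and Tnfrsf14, which lie near the floor.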
